A study of Homo sapiens with 18 samples.

Results

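The 36 genes described here make, regulate, carry or store cholesterol and fatty acids, and were taken as every entry with 1 of 36 listed symbols among the 53853 gene entries of the deposited tables. All 36 were found, and all 36 passed the filter on low counts among the 17567 genes tested. RNA was measured in 18 poly(A)-selected libraries of cerebral organoids, 3-dimensional brain-like cultures, grown for 83 days with a ventral forebrain protocol from H1 and H9, which are established lines of human embryonic stem cells. Each line had 3 groups of 3 libraries, numbered 1 to 18 in the labels. The vehicle control received 100 µM ascorbic acid, the acute group received 1 µM dopamine for 1 hour after 1 week of vehicle, and the chronic group received 1 µM dopamine daily for 1 week before a final dose of 1 hour. Ascorbic acid was at 100 µM in the dopamine groups too, so no group lacked it. Each line is 1 genotype, and no label states if replicate libraries are independent cultures. The p-values therefore reflect library-to-library spread, which could be technical alone.

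Cholesterol synthesis starts with the mevalonate pathway, which joins acetyl units into isoprenoids, and continues through squalene and a chain of sterol intermediates. The transcription factor SREBP2, encoded by SREBF2, switches these genes on when sterols are scarce, and INSIG1 holds it back when sterols are plentiful. LXR receptors respond to oxidised sterols and raise efflux genes such as ABCA1 and ABCG1. In the brain, cholesterol is made locally, is passed from glia to neurons on APOE particles, and leaves mainly after CYP46A1 in neurons converts it to 24-hydroxycholesterol.

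In 17 libraries the total was 13647204 to 21691180 counts. Library 9, an H1 control, was far shallower, with 155 counts on the 36 genes, and a floor of 3 counts there equals 69.3 CPM (counts scaled to a common library size). It was left out of all means and of the tests, so H1 control rests on libraries 7 and 8. The lowest count of any of the 36 genes in the other libraries was 27. Genes of the dorsal forebrain marked H1 and genes of the ventral forebrain marked H9: NKX2-1, a ventral factor, was at 0 to 1.03 CPM in H1 against 33.2 to 74.6 CPM in H9, while 8 dorsal forebrain genes summed to 1491 to 3105 CPM in H1 and 12.1 to 24.7 CPM in H9. The H1 organoids therefore lacked a defining marker of the labelled ventral identity. Blood transcripts, summed over 5 genes, reached 131 to 2674 counts in libraries 4, 8, 13, 17 and 18 and 0 to 27 counts in the remaining deep libraries, a split that does not follow the groups. The sources used here do not say how strand was handled in counting, and exons of ACAT2, CYP51A1, MVK, NR1H2, NR1H3 and SREBF1 overlap those of a protein-coding gene on the other strand in GENCODE, so reads of such pairs may be mixed. TM7SF2 shares exon sequence with VPS51 on the same strand, and pseudogenes named after CYP51A1, FDPS, HSD17B7, IDI1 and SCD are annotated.

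Because sterol genes are classic targets of SREBP, the promoters in RefSeq (250 bases before to 50 after a start, GRCh38.p14) were searched on both strands for its site. A promoter was found for 30 of the 36 genes, 42 windows in all. The core CACNCCAC was present in 21.4% of these windows and in 5.87% of all 35116 promoters. It was in windows of ABCA1, ACACA, APOE, IDI1, INSIG1, SC5D, SCD and SREBF2. Windows of a gene can overlap, so the shares do not count separate sites. The SC5D windows hold the same core match, at 13 and -68 from their starts, and it is counted in each. The longer form TCACNCCAC, which contains the core, was in 2.38% against 1.13%, in SREBF2 alone. The NF-Y box CCAAT was in 61.9% against 34.6%, and the E-box CACGTG in 14.3% against 7.26%. The LXR element known as DR4 was in none of the windows of these genes and in 0.0199% of all promoters. These are letter matches, not measured binding. Stretches around the core are shown for 4 genes whose match lies before the annotated gene start, because INSIG1, SCD and SREBF2 recur in the library patterns below and ABCA1 is an efflux gene. Capitals mark the core and any CCAAT box, in either orientation, and each is written 5′ to 3′ on the strand of its gene. The INSIG1 stretch is chr7:155297645-155297702 (+), SCD is chr10:100347094-100347151 (+), SREBF2 is chr22:41832948-41833005 (+) and ABCA1 is chr9:104928351-104928405 (-).
INSIG1: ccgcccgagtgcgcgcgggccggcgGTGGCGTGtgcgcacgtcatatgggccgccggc
SCD: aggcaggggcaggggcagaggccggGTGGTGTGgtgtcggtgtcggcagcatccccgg
SREBF2: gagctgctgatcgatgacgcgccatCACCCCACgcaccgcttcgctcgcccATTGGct
ABCA1: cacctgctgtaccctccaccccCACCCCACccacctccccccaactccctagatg
The INSIG1 and SCD stretches carry the core on the opposite strand, and SREBF2 carries it on its own strand with a CCAAT box in reverse close by.

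Per unit of length, the genes of synthesis were the most abundant. As the authors' TPM (a unit that corrects for transcript length and depth) averaged over 17 libraries, SCD, which desaturates fatty acids, was first at 738 TPM and ranged from 341 to 1013 TPM. HMGCS1, the entry enzyme of the mevalonate pathway, followed at 539 TPM, MSMO1, a sterol demethylation enzyme, at 470 TPM and FDPS, which makes farnesyl diphosphate, at 343 TPM. SREBF2 averaged 327 TPM and SREBF1, the related factor of fatty acid synthesis, 19.9 TPM. The order of FDPS and SREBF2 differed by line. In H1, SREBF2 at 353 ± 27.8 TPM (SD, n = 8) stood above FDPS at 217 ± 16.8 TPM, and in H9 FDPS at 456 ± 53.6 TPM (SD, n = 9) stood above SREBF2 at 304 ± 32.95 TPM. The lowest levels were those of ABCA1 at 8.92 TPM, MYLIP, a ubiquitin ligase that removes lipoprotein receptors, at 8.51 TPM, ABCG1 at 7.19 TPM and the LXR receptor NR1H3 at 3.91 TPM. The other LXR receptor, NR1H2, stood at 35.3 TPM. Neighbours in this order mostly overlapped: the HMGCS1 range of 280.5 to 703 TPM covered that of MSMO1, 395 to 617 TPM.

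The clearest differences were between the lines. H9 organoids held several times more APOE and CYP46A1 RNA than H1 organoids, more of the enzymes FDPS, CYP51A1, PMVK, TM7SF2 and HSD17B7, and less SREBF1 and FDFT1. Averaged over treatments, H9 had the higher level for 18 genes of the list and the lower level for 8 (quasi-likelihood test of edgeR at a Benjamini-Hochberg adjusted p below 0.05, over all genes). These 26 genes are 72.2% of the list, and 74.5% of all genes tested passed the same test, so the share that differed was near the background. Of all genes 38.6% were higher and 35.9% lower. Without the 5 libraries holding blood transcripts, 11 genes of the list passed as higher and 4 as lower, and 5696 and 5209 of 17829 genes in that fit did so, against 6784 and 6306 of 17567 with these libraries. The median log2 fold change was 0.15 over the 36 genes and 0.03 over all genes. Line, genotype and regional identity cannot be told apart here, and in bulk RNA fewer cells of a type and less RNA per cell cannot be told apart either.

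**Figure D1:**
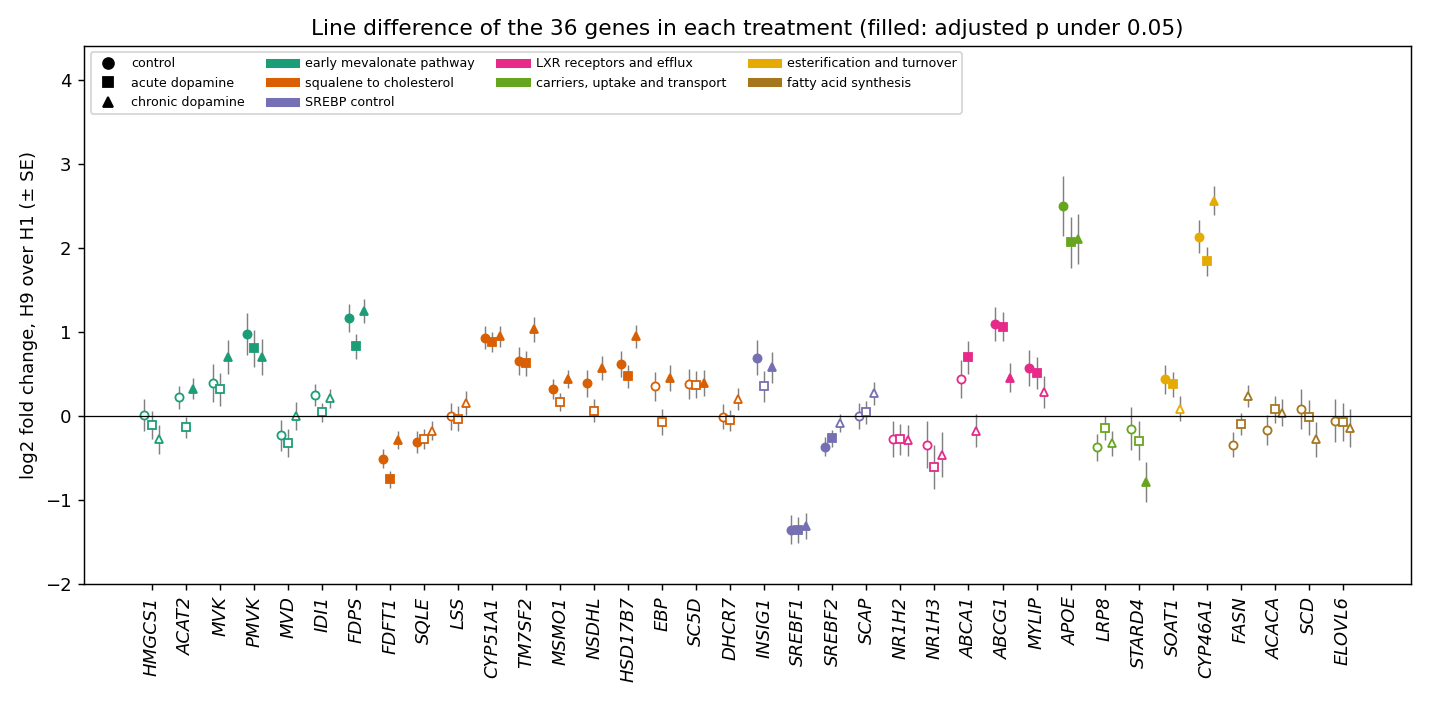
Log2 fold change of H9 over H1 (vertical axis, ± SE) for each of the 36 genes in control, acute and chronic dopamine organoids, coloured by role, with filled symbols where the adjusted p was under 0.05. APOE and CYP46A1 stand highest and SREBF1 lowest in all 3 treatments, and the 4 fatty acid synthesis genes have open symbols throughout.

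Among the 7 genes of the early mevalonate pathway, 4 were higher in H9 and none was lower. FDPS (chr1:155308748-155320666, + strand, GRCh38, GENCODE) was at 104 and 91.3 CPM in the 2 H1 controls, at 116, 109 and 117 CPM in acute H1, and at 112, 102 and 103 CPM in chronic H1. In H9 it was at 207, 196 and 254 CPM in controls, 198, 195 and 213 CPM in acute and 221, 324 and 207 CPM in chronic libraries. Every H9 library lay above every H1 library. The log2 fold change was 1.08 ± 0.09 (SE; adjusted p = 6.02e-09, edgeR), a 2.11-fold difference. PMVK, the second of the pathway's kinases, was higher by 0.82 ± 0.13 on the log2 scale and MVK, the first, by 0.47 ± 0.12. IDI1, the isomerase that supplies dimethylallyl diphosphate, was higher by 0.16 ± 0.07 (adjusted p = 0.036, edgeR), a call that 15 of 29 alternative settings did not keep. HMGCS1 (-0.13 ± 0.10), ACAT2, a thiolase, at 0.13 ± 0.07, and MVD, a decarboxylase, at -0.19 ± 0.10 did not pass.

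From squalene to cholesterol, H9 exceeded H1 for 7 of 11 genes and fell short for 2. CYP51A1, the lanosterol demethylase, was at 130, 140 and 147 CPM in the lowest, median and highest of the 8 H1 libraries and at 230, 250 and 305 CPM in the 9 H9 libraries. The lines did not overlap, and the log2 fold change was 0.92 ± 0.07 (adjusted p = 5.07e-09, edgeR). TM7SF2, a sterol reductase, was higher by 0.77 ± 0.09, HSD17B7, a sterol ketone reductase, by 0.68 ± 0.08, SC5D, a desaturase, by 0.38 ± 0.09, NSDHL, a demethylation enzyme, by 0.34 ± 0.08, MSMO1 by 0.30 ± 0.06 and EBP, a sterol isomerase, by 0.24 ± 0.09 on the log2 scale. FDFT1, squalene synthase and the first committed step to sterols, was lower. It was at 373 and 412 CPM in H1 controls, 451, 443 and 395 CPM in acute H1 and 346, 354 and 359 CPM in chronic H1. In H9 it was at 261, 261 and 303 CPM in controls, 257, 227 and 278 CPM in acute and 294, 311 and 263 CPM in chronic libraries. All H1 libraries lay above all H9 libraries, and the log2 fold change was -0.52 ± 0.06 (adjusted p = 7.75e-07, edgeR). FDPS and FDFT1 act one after the other, and their levels differed between the lines in opposite directions. SQLE, the squalene epoxidase, was also lower, at -0.26 ± 0.07. LSS at 0.04 ± 0.09, the lanosterol synthase, and DHCR7 at 0.05 ± 0.08, a last-step reductase, did not pass, and their 95% intervals of -0.15 to 0.22 and -0.12 to 0.21 bound any line difference.

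Of the 4 SREBP control genes, INSIG1 was higher in H9 by 0.54 ± 0.11 and SREBF1 and SREBF2 were lower. SREBF1 (chr17:17810399-17837002, - strand) was at 38.3 and 50.1 CPM in H1 controls, 44.7, 52.3 and 42.5 CPM in acute H1 and 51.7, 41.0 and 44.9 CPM in chronic H1. In H9 it was at 19.1, 14.1 and 18.4 CPM in controls, 17.4, 19.2 and 17.6 CPM in acute and 17.02, 22.4 and 16.03 CPM in chronic libraries. No library of either line reached the range of the other. The log2 fold change was -1.34 ± 0.09 (adjusted p = 6.84e-10, edgeR). SREBF2 differed by -0.24 ± 0.06, and SCAP, the escort protein of SREBP, at 0.10 ± 0.08 did not pass. The 4 fatty acid synthesis genes did not pass, although SREBF1 is known as their regulator. FASN, the fatty acid synthase, was at -0.07 ± 0.08 on the log2 scale, ACACA, which makes malonyl-CoA, at -0.02 ± 0.10, SCD at -0.08 ± 0.13 and ELOVL6, a fatty acid elongase, at -0.09 ± 0.14. Their 95% intervals reached from -0.38 to 0.20 at the widest, that of ELOVL6.

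Among LXR receptors and efflux genes, ABCG1, which exports cholesterol to lipoproteins, was higher in H9 by 0.87 ± 0.10 (adjusted p = 9.27e-07, edgeR), MYLIP by 0.45 ± 0.11 and ABCA1 by 0.32 ± 0.12, while both receptors were lower. NR1H3 was at 2.85 and 4.90 CPM in H1 controls, 3.02, 4.23 and 3.81 CPM in acute and 3.21, 3.46 and 3.43 CPM in chronic H1. In H9 it was at 2.78, 2.94 and 3.44 CPM in controls, 1.80, 2.72 and 2.64 CPM in acute and 2.03, 3.37 and 1.94 CPM in chronic libraries. The lines overlapped for this gene, with a log2 fold change of -0.47 ± 0.16 (adjusted p = 0.0115, edgeR). NR1H2 differed by -0.28 ± 0.11. The ABCA1 call was lost in 11 of 29 alternative settings and the NR1H2 call in 8.

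APOE (chr19:44905791-44909393, + strand), the main lipoprotein of the brain, and CYP46A1 had the largest line differences. Their order was not settled: over treatments the log2 fold changes were 2.22 and 2.17, in chronic organoids 2.10 and 2.56, and without library 11 over treatments 2.05 and 2.09. APOE was at 6.91 and 7.95 CPM in H1 controls, 8.41, 7.02 and 7.25 CPM in acute H1, and 12.01, 10.1 and 15.5 CPM in chronic H1. In H9 it was at 57.0, 31.4 and 37.5 CPM in controls, 28.7, 30.3 and 36.3 CPM in acute, and 34.8, 87.4 and 40.0 CPM in chronic libraries. The highest H1 library stayed below the lowest H9 library, and the difference was 4.66-fold, or 2.22 ± 0.19 on the log2 scale (adjusted p = 8.32e-09, edgeR). Averaged over libraries, APOE was at 21.6 ± 7.33 TPM in H1 (SD, n = 8) and 96.1 ± 31.8 TPM in H9 (SD, n = 9). LRP8, a receptor for APOE and reelin, differed by -0.28 ± 0.09, and STARD4, a sterol carrier inside cells, by -0.41 ± 0.14; both were lower in H9.

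CYP46A1 (chr14:99684298-99727301, + strand) was at 8.39 and 7.84 CPM in H1 controls, 9.06, 7.84 and 8.66 CPM in acute H1 and 8.35, 7.72 and 9.14 CPM in chronic H1. In H9 it was at 39.1, 31.7 and 35.999 CPM in controls, 30.9, 30.3 and 30.2 CPM in acute, and 40.2, 66.8 and 41.8 CPM in chronic libraries. The H1 libraries were close together and far below every H9 library. The difference was 4.51-fold, or 2.17 ± 0.10 on the log2 scale (adjusted p = 5.25e-12, edgeR). SOAT1, which esterifies cholesterol for storage, was higher by 0.30 ± 0.09.

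**Figure D2:**
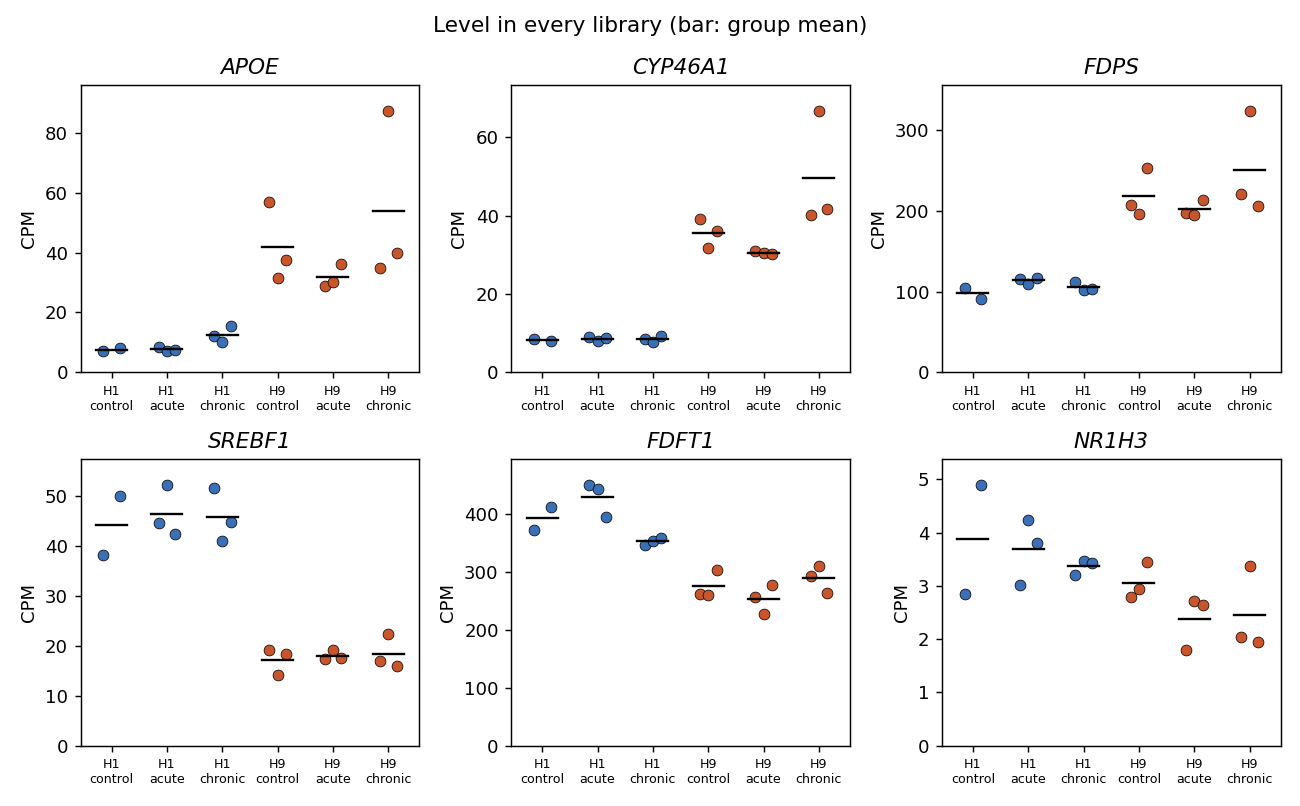
CPM in each of the 17 deep libraries (points, H1 blue and H9 orange) by line and treatment, with the group mean as a bar, for the 3 genes with the largest difference in each direction. APOE, CYP46A1 and FDPS are higher in all H9 libraries, SREBF1 and FDFT1 are lower in all of them, and NR1H3 overlaps.

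The line comparison was repeated within each treatment, in separate libraries. In controls 13 genes had more RNA in H9 and 4 had less, against 29.8% and 25.7% of all genes (55.5% in either direction). In acute organoids 11 were higher and 3 lower, against 29.3% and 26.3% (55.6%). In chronic organoids 15 were higher and 3 lower, against 31.6% and 28.9% (60.5%). PMVK, FDPS, CYP51A1, TM7SF2, HSD17B7, ABCG1, APOE and CYP46A1 were higher in H9 in all 3 treatments, 22.2% of the list, as were 22.9% of all genes. FDFT1 and SREBF1 were lower in all 3, 5.56% of the list against 19.6% of all genes. In controls the other genes that passed were MSMO1 (0.32 ± 0.12), NSDHL (0.38 ± 0.16), INSIG1 (0.69 ± 0.21), MYLIP (0.56 ± 0.21) and SOAT1 (0.43 ± 0.17), higher in H9, and SQLE (-0.32 ± 0.13) and SREBF2 (-0.37 ± 0.12), lower. In acute organoids they were ABCA1 (0.69 ± 0.20), MYLIP (0.51 ± 0.19) and SOAT1 (0.38 ± 0.15), higher, and SREBF2 (-0.27 ± 0.11), lower. In chronic organoids they were ACAT2 (0.32 ± 0.12), MVK (0.70 ± 0.20), MSMO1 (0.43 ± 0.11), NSDHL (0.57 ± 0.14), EBP (0.45 ± 0.16), SC5D (0.39 ± 0.16) and INSIG1 (0.58 ± 0.19), higher, and STARD4, lower. Many of these calls were not stable over the 29 alternative settings. In controls SQLE was lost in 18 of them, NSDHL in 16 and SOAT1 in 12. Losses in acute organoids were 17 for SOAT1 and 13 for SREBF2. Among chronic calls SC5D was lost in 13, ABCG1 in 10 and ACAT2 in 9, while MVK, NSDHL and STARD4 were lost in none. APOE differed by 2.50 ± 0.36 in controls, 2.07 ± 0.30 in acute and 2.10 ± 0.30 in chronic organoids on the log2 scale. STARD4 was lower in chronic organoids, at -0.79 ± 0.24, and its values of -0.15 in controls and -0.30 in acute organoids did not pass; whether the line difference of STARD4 differed between treatments is covered by the interaction tests below, in which it did not pass. The control counts rest on few libraries, and those of all genes fell with them. Without library 8, 7 genes of the list were higher and 2 lower, with 3951 and 3330 of all genes, against 5231 and 4519 with every library. There were 8 higher without library 7 (4386 of all genes) or library 18 (4707), and 2 lower without library 17 (4159). Lower calls rose to 6 in acute organoids without library 11 (5359 of all genes, against 4623) and in chronic organoids without library 10 (4996, against 5079) or library 11 (5342). Over all libraries the lines did not overlap for 8 genes higher in H9, with MVK in place of ABCG1 in the list above (22.2%, against 22.7% of all genes), and for FDFT1 and SREBF1 lower (5.56% against 20.5%).

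Other genes of these pathways differed between the lines too. Of 15 tested genes in a list of other sterol and isoprenoid synthesis genes, 3 were higher in H9 (GGPS1, a geranylgeranyl diphosphate synthase, by 0.69 ± 0.06; DHDDS, of dolichol synthesis, by 0.19 ± 0.06; PDSS2, of coenzyme Q synthesis, by 0.22 ± 0.09). In the same list 5 were lower, led by AACS, acetoacetyl-CoA synthetase, at -0.61 ± 0.06 and LBR, a sterol reductase of the nuclear envelope, at -0.45 ± 0.08. Of 9 other SREBP regulators, 4 were higher, with INSIG2, the relative of INSIG1, at 1.03 ± 0.07 and MBTPS2, a protease that releases SREBP, at 0.82 ± 0.09. The 2 lower ones were MBTPS1, the other SREBP protease, at -0.38 ± 0.05 and ERLIN1 at -0.45 ± 0.07. The SREBP proteases therefore differed in opposite directions.

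Of 27 other cholesterol transport and turnover genes, 15 were higher and 8 lower. APOC1, an apolipoprotein gene next to APOE, differed by 4.56 ± 0.34, NCEH1, a cholesterol ester hydrolase, by 2.37 ± 0.15 and ABCG4, an efflux transporter of the brain, by 2.04 ± 0.09. Lower ones included DAB1, the adaptor of the reelin receptors, at -2.45 ± 0.18, LIPA, the lysosomal lipase, at -0.52 ± 0.07 and VLDLR, the partner receptor of LRP8, at -0.38 ± 0.07. Of 35 other fatty acid and glycerolipid genes, 17 were higher and 10 lower. ME1, which makes NADPH, differed by 7.31 ± 0.22, FABP3, a fatty acid carrier, by 4.42 ± 0.16 and DGAT2, of triglyceride synthesis, by 3.38 ± 0.14. Lower ones included GPAM, an acyltransferase, at -0.83 ± 0.10, FABP5, a carrier, at -0.63 ± 0.09 and ELOVL2, an elongase of long polyunsaturated fatty acids, at -0.48 ± 0.08. All values are log2 fold changes of H9 over H1 with their SE, and each of these genes passed at an adjusted p under 0.05 in edgeR.

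Markers of cell types moved with the line difference. The summed level of 10 astrocyte genes was 545 to 675 CPM in H1 and 838 to 1164 CPM in H9, with 7 higher and 3 lower. S100B was higher by 3.53 ± 0.22, AGT by 4.08 ± 0.29 and SPARCL1 by 5.38 ± 0.42, while SOX9 (-1.31 ± 0.12), SLC1A2 (-0.40 ± 0.10) and GFAP (-0.50 ± 0.20) were lower. The astrocyte list therefore did not move one way, and the glial gene GFAP was at most 13.5 CPM in any library. The 10 radial glia and progenitor genes summed to 5288 to 6358 CPM in H1 and 2414 to 3725 CPM in H9, with 1 higher (FAM107A, 0.82 ± 0.17) and 8 lower (FABP7, -1.91 ± 0.09, PAX6, -1.17 ± 0.11, and VIM, -1.02 ± 0.10, the 3 of smallest p). The 10 cycling cell genes summed to 621 to 881 CPM in H1 and 51.4 to 101 CPM in H9, and all 10 were lower, ASPM by a log2 fold change of -3.27 ± 0.10, BUB1 of -2.79 ± 0.09 and TOP2A of -3.56 ± 0.13. The 10 neuron genes summed to 6874 to 8632 CPM in H1 and 9790 to 11248 CPM in H9, with 3 higher (GAP43, 1.54 ± 0.09, STMN2, 0.79 ± 0.07, and MAP2, 0.25 ± 0.11) and 4 lower (SNAP25, -0.57 ± 0.06, ELAVL3, -0.52 ± 0.08, and SYT1, -0.19 ± 0.07, the 3 of smallest p).

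Of 8 tested oligodendrocyte lineage genes 6 were higher (among them MBP, 5.58 ± 0.20, and OLIG2, 1.90 ± 0.26) and PDGFRA (-1.87 ± 0.20) was lower; the myelin genes MOG and MAG stayed at or under 0.129 and 0.551 CPM. Of 8 choroid plexus genes 3 were higher (PRLR, 1.33 ± 0.15, KL, 2.45 ± 0.29, and OTX2, 1.45 ± 0.18) and KCNJ13 (-4.31 ± 1.44) was lower. Of 8 mesenchyme genes 5 were higher (the 3 of smallest p were LUM, 3.11 ± 0.26, DCN, 3.76 ± 0.34, and POSTN, 1.59 ± 0.49) and none was lower. Of 5 tested microglia and macrophage genes CX3CR1 (1.17 ± 0.47) was higher, and C1QA and C1QB stayed at or under 0.0667 and 0.184 CPM. Of 4 tested endothelial genes 3 were higher (FLT1, 4.42 ± 0.67, KDR, 4.69 ± 0.77, and CLDN5, 1.504 ± 0.41), and of 4 tested pigment cell genes DCT (-1.19 ± 0.19) and PMEL (-1.34 ± 0.35) were lower. Of 10 ventral forebrain genes 7 were higher (NKX2-1, 8.52 ± 0.32, GAD1, 5.01 ± 0.23, and SLC32A1, 3.68 ± 0.23) and 2 lower, among them DLX5 (-0.87 ± 0.27). All 8 dorsal forebrain genes were lower, SLC17A7 at -5.97 ± 0.11, TBR1 at -8.74 ± 0.18 and EOMES at -9.02 ± 0.19. Of 5 tested hepatocyte and gut genes MTTP (1.32 ± 0.13) and ALB (1.37 ± 0.50) were higher, with APOA2 and APOC3 at or under 0.151 CPM. The part of these cell types in the line difference of the 36 genes was not tested.

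Against control, dopamine called none of these genes. Acute dopamine against control, in which 0.0114% of all genes in H1 and 0% in H9 passed, called none of the 36 genes in either line with the edgeR quasi-likelihood test, DESeq2 or limma on TPM. None reached an unadjusted p under 0.05 in either line, where 3.53% and 2.99% of all genes did. The smallest p-values in H1 were those of EBP at 0.32 ± 0.18 and ACAT2 at 0.25 ± 0.14 upward, and FASN at -0.12 ± 0.15 and LRP8 at -0.09 ± 0.16 downward. In H9 they were ABCA1 at 0.20 ± 0.20 and ACACA at 0.16 ± 0.16 upward, and APOE at -0.40 ± 0.28 and CYP46A1 at -0.22 ± 0.16 downward. The 95% intervals of the log2 fold changes reached 0.768 in size in H1 and 0.995 in H9 at the widest. The 3 acute libraries lay above both H1 controls for FDPS, MSMO1, NSDHL and ELOVL6 (11.1%, against 8.81% of all genes) and below them for none (7.34%). In H9 they lay above the controls for none (4.77%) and below them for NR1H3 and CYP46A1 (5.56% against 4.78%). Averaged over the lines, acute dopamine called 0 of 36 genes (0% of all genes), with 0 of 36 at an unadjusted p under 0.05. HMGCS1 (0.12 ± 0.13) and SOAT1 (0.10 ± 0.11) had the smallest p upward, and NR1H3 (-0.21 ± 0.19) and APOE (-0.19 ± 0.22) downward.

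Chronic dopamine against control also called none of the 36 genes in either line with edgeR, DESeq2 or limma, against 1.59% of all genes in H1 (1.3% higher and 0.29% lower) and 0.649% in H9 (0.0171% higher and 0.632% lower) with edgeR. At an unadjusted p under 0.05 there were 3 of 36 in H1 and 3 in H9, while 10.8% and 11.8% of all genes reached it. In H1 the smallest p upward was that of ABCG1, at 14.4 and 12.8 CPM in controls, 12.1, 14.5 and 16.9 CPM in acute and 21.4, 19.8 and 19.3 CPM in chronic libraries. All 3 chronic libraries lay above the other H1 libraries, with a log2 fold change of 0.57 ± 0.20 (adjusted p = 0.219, edgeR). Library 11 belongs to H9 and enters this comparison only through the filter, the scaling, the shared spread and the adjustment. Fitted without it, the adjusted p for ABCG1 was 0.0426 (edgeR). Over 29 alternative settings that p ranged from 0.0205 to 1, and 2 of them called it. SOAT1 was at 0.40 ± 0.17, APOE at 0.76 ± 0.35 and ABCA1 at 0.37 ± 0.22, none of which passed. Downward, FASN was at -0.28 ± 0.15 and SREBF2 at -0.17 ± 0.12.

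In the same H1 comparison the 3 chronic libraries lay apart from the 2 controls for 10 of the 36 genes upward (27.8%, against 19.5% of all genes) and 8 downward (22.2% against 17.7%). Of 2 against 3 libraries such separation is common, as the background shows. The 10 were HMGCS1, PMVK, EBP, NR1H2, ABCA1, ABCG1, APOE, SOAT1, SCD and ELOVL6. Markers of other cells rose in chronic H1 organoids: all 4 tested pigment cell genes passed (DCT, 2.51 ± 0.34, TYRP1, 5.15 ± 0.74, and PMEL, 3.11 ± 0.59), from a summed 1.74 to 1.94 CPM to 15.0 to 17.6 CPM. The astrocyte genes GJA1 (2.84 ± 0.35) and AQP4 (2.47 ± 0.59), 2 of 10, rose as well, but the summed astrocyte level was 545 to 556 CPM in controls and 549 to 675 CPM in chronic organoids. Of 8 oligodendrocyte lineage genes 2 passed, among them OLIG1 (2.79 ± 0.65), and OTX2 (2.04 ± 0.36), 1 of 8 choroid plexus genes, and 7 of 10 ventral forebrain genes, led by GAD1 (3.08 ± 0.41), SLC32A1 (2.69 ± 0.45) and GAD2 (2.64 ± 0.48), also rose. SNAP25 (-0.50 ± 0.11), 1 of 10 neuron genes, and FEZF2 (-1.0004 ± 0.24), 1 of 8 dorsal genes, fell. Their part in the ABCG1, APOE and SOAT1 values was not tested. In the 4 lists of other pathway genes, 2 genes passed in chronic H1: CPT1A, the entry enzyme of fatty acid oxidation, rose by 0.90 ± 0.18 (adjusted p = 0.0167, edgeR) and SCD5, a brain desaturase, changed by -0.54 ± 0.11 (adjusted p = 0.0251, edgeR).

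In chronic H9 organoids the smallest p-values were those of CYP46A1 at 0.48 ± 0.16 (adjusted p = 0.216, edgeR) and TM7SF2 at 0.38 ± 0.15 upward, and STARD4 at -0.46 ± 0.23 and ABCA1 at -0.25 ± 0.20 downward. Without library 11 these were 0.22 ± 0.11, 0.15 ± 0.10, -0.19 ± 0.20 and 0.02 ± 0.14 in the same order, so all 4 shrank and ABCA1 changed sign. The 3 chronic libraries lay above the 3 controls for TM7SF2 and CYP46A1, 5.56% of the list against 5.66% of all genes, and below them for none (7.66% of all genes). In the same comparison 4 of 8 mesenchyme genes fell (COL3A1, -7.51 ± 1.42, COL1A2, -5.60 ± 1.08, and COL1A1, -6.29 ± 1.23, the 3 of smallest p), as did 1 of 8 oligodendrocyte lineage genes and ASPM (-0.98 ± 0.18), 1 of 10 cycling genes; their part was not tested. Averaged over the lines, chronic dopamine called 0 of 36 genes (0.524% of all genes passed), and 2 of 36 had an unadjusted p under 0.05. Those with the smallest p were APOE (0.56 ± 0.22, adjusted p = 0.37, edgeR) and EBP (0.25 ± 0.12) upward, and NR1H3 (-0.27 ± 0.19) and SQLE (-0.11 ± 0.09) downward. The acute and chronic comparisons share their control libraries.

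**Figure D3:**
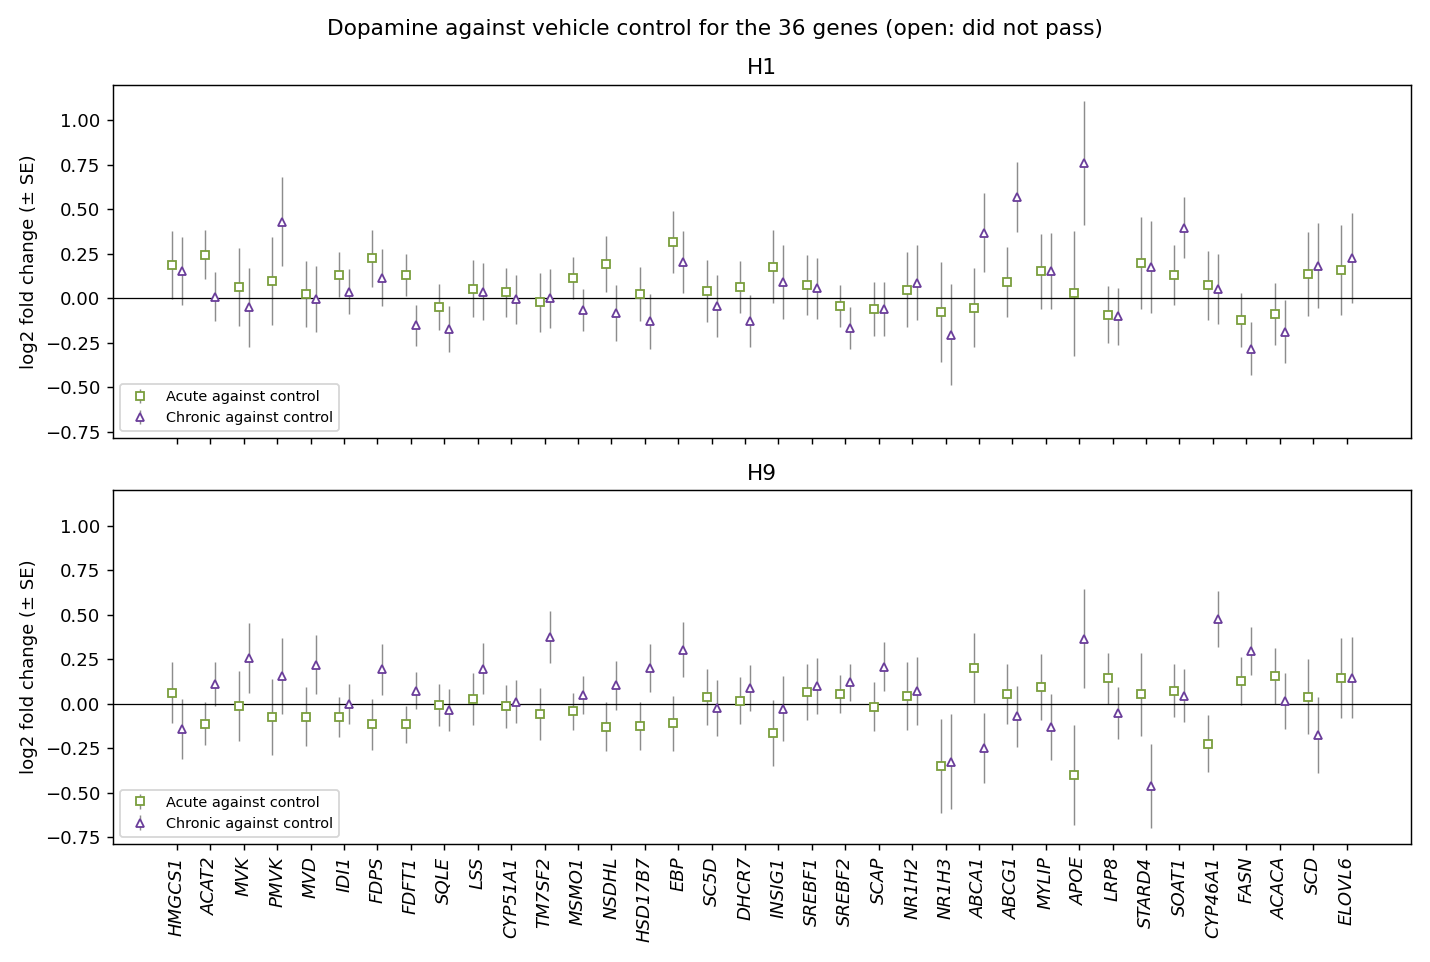
Log2 fold change (vertical axis, ± SE) of acute and chronic dopamine against vehicle control for the 36 genes in H1 (top) and H9 (bottom). None passed an adjusted p of 0.05; APOE in chronic H1, at 0.76 ± 0.35, is the largest of these values.

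Chronic against acute dopamine gave the only called gene. In H9, CYP46A1 was higher in chronic organoids, with the 3 acute libraries at 30.2 to 30.9 CPM and the 3 chronic ones at 40.2, 66.8 and 41.8 CPM as given above. The groups did not overlap, and the log2 fold change was 0.70 ± 0.16 (adjusted p = 0.0371, edgeR). This is 1 of 36 genes, 2.78%, where 1.45% of all genes passed, 0.216% higher and 1.23% lower. Groups lay apart upward for ACAT2, TM7SF2, HSD17B7, EBP and CYP46A1, 13.9% of the list against 9.61% of all genes, and downward for none (10.5%). Library 11 was the highest of the 3, and without it the log2 fold change was 0.44 ± 0.11 with an adjusted p of 0.0613 (edgeR). The call was also lost without each of libraries 3, 8, 13, 14 and 15, and in 9 of 29 alternative settings in all, with adjusted p from 0.00228 to 0.326. Without the 5 libraries with blood transcripts the log2 fold change was 0.71 ± 0.20 (adjusted p = 0.207, edgeR). In H9 the controls, at 31.7 to 39.1 CPM, lay between the groups without overlapping either. Other H9 genes that did not pass were TM7SF2 at 0.43 ± 0.15, APOE at 0.77 ± 0.28 (95% interval to 1.36), ABCA1 at -0.45 ± 0.20 and STARD4 at -0.51 ± 0.23. Markers of other cells fell in the same comparison: COL3A1 (-6.92 ± 1.43) and PDGFRB (-0.65 ± 0.16), 2 of 8 mesenchyme genes, NEUROD6 (-2.41 ± 0.40) and NEUROG2 (-4.33 ± 0.72), 2 of 8 dorsal genes, and 1 each of the radial glia (NES, -1.10 ± 0.22), astrocyte (GFAP, -1.45 ± 0.35), oligodendrocyte lineage and cycling (ASPM, -1.19 ± 0.18) genes. No neuron gene of 10 passed, and their summed level was 9790 to 10680 CPM in acute and 10522 to 11248 CPM in chronic H9. The part of these cells in the CYP46A1 value was not tested.

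In H1, chronic against acute dopamine called 0 of 36 genes (0.0455% of all genes), 4 of which had an unadjusted p under 0.05; DESeq2 and limma called none. ABCG1 was at 0.48 ± 0.17 and APOE at 0.73 ± 0.31 upward, and FDFT1 at -0.28 ± 0.10 and NSDHL at -0.27 ± 0.14 downward. The libraries lay apart upward for ABCA1, ABCG1, APOE and SOAT1 (11.1% against 8.63% of all genes) and downward for 6 genes, FDFT1, MSMO1, NSDHL, SC5D, DHCR7 and FASN (16.7% against 8.32%). The difference between lines in the dopamine effect was tested directly. For acute dopamine no gene of the list or of the genome passed (0%), and 0 of 36 had an unadjusted p under 0.05; for chronic dopamine 0 of 36 passed in edgeR, DESeq2 and limma, 1.72% of all genes passed in edgeR, and 2 of 36 had an unadjusted p under 0.05. Those were FASN, 0.58 ± 0.20 (adjusted p = 0.167, edgeR; called when library 18 was left out), and ABCG1, -0.64 ± 0.26 (adjusted p = 0.255, edgeR), the first higher and the second lower in the H9 response. SREBF2 (0.29 ± 0.16) and ABCA1 (-0.62 ± 0.30) followed. For acute dopamine the smallest p-values were those of FASN (0.25 ± 0.20) and LRP8 (0.23 ± 0.22) upward and ACAT2 (-0.36 ± 0.19) and EBP (-0.43 ± 0.23) downward.

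Within several groups, single libraries were highest or lowest for many of these genes. In H9 control, library 18 was the highest of its group for 27 of the 36 genes (75%, where it was highest for 34.2% of all genes) and library 17 lowest for 19 (52.8% against 31.4%). In H9 acute, library 15 was highest for 26 (72.2% against 34.8%) and library 14 lowest for 24 (66.7% against 34.7%). In H9 chronic, library 11 was highest for 19 (52.8% against 45.5%) and lowest for 15 (41.7% against 40.4%), and library 10 highest for 16 (44.4% against 33.3%). In H1 acute the counts were smaller, with library 4 highest for 20 (55.6% against 33.4%) and library 5 lowest for 18 (50% against 37.1%). In H1 chronic no library stood out: each of the 3 was highest for 12 genes (33.3%, against 29.5% to 38.6% of all genes). These libraries were singled out after their values were seen. The 36 genes took 0.777% of all counts in library 18 (exact 95% interval 0.773 to 0.781), 0.762% in library 15, 0.742% in library 10 and 0.722% in library 4. The other 13 deep libraries lay between 0.603% and 0.671%. The intervals cover counting error only.

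**Figure D4:**
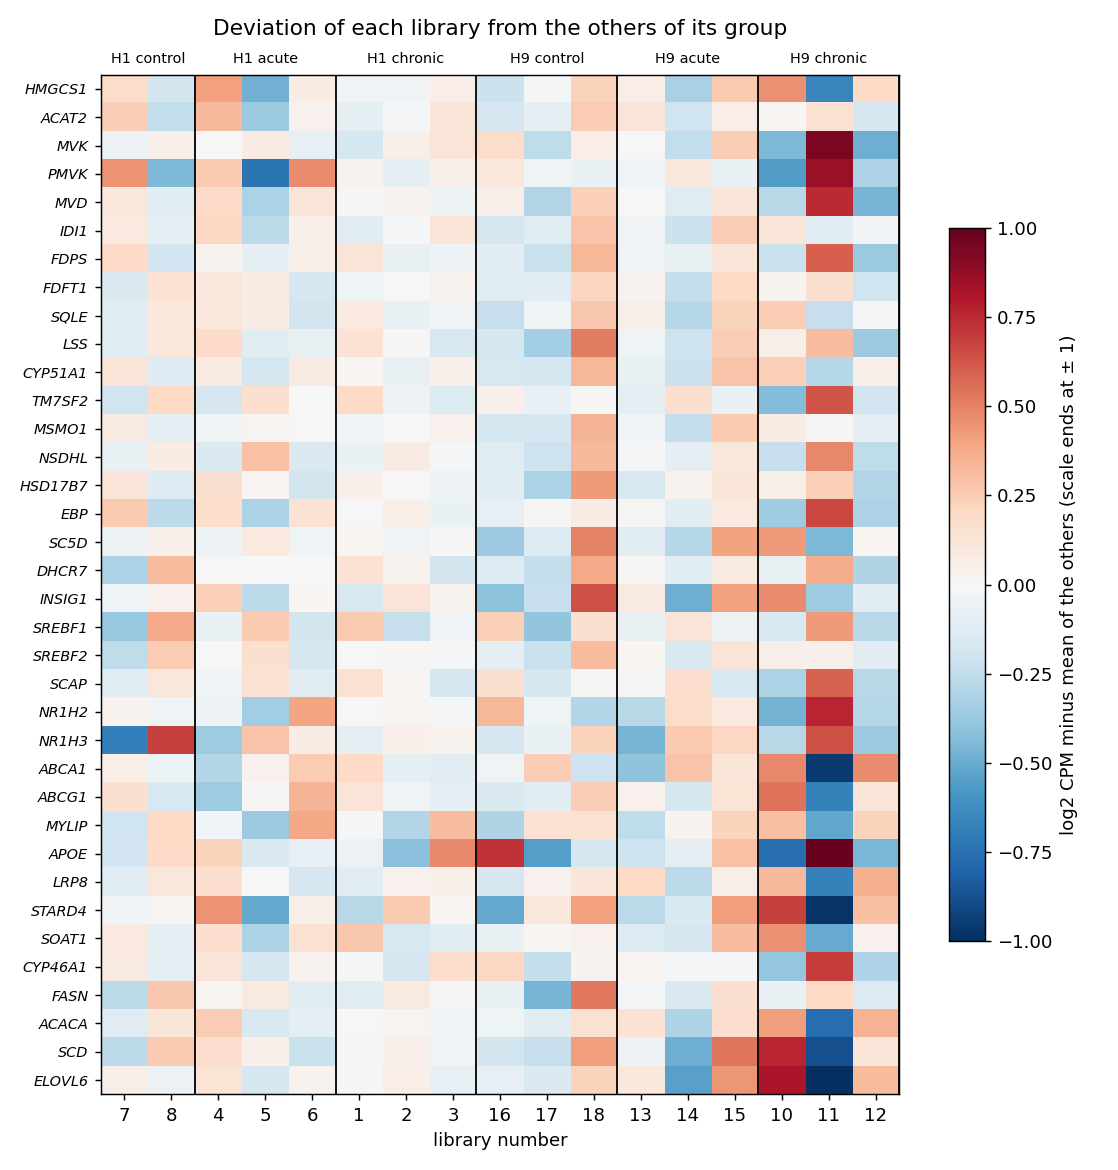
Log2 CPM of each gene (rows) in each library (columns, by group) minus the mean of the other libraries of its group, red above and blue below. Libraries 18 and 15 are red for most genes and 14 and 17 mostly blue, while library 11 is red for some genes and blue for others.

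INSIG1, a sensitive target of SREBP2, shows this pattern. It was at 133, 144 and 217 CPM in H9 controls (libraries 16, 17 and 18), 151, 116 and 175 CPM in acute (13, 14 and 15) and 199, 135 and 151 CPM in chronic H9 (10, 11 and 12). In any group 1 library is the highest, and for INSIG1 in H9 these were libraries 18, 15 and 10. The spread within groups was larger than the difference between the group means of 165, 147 and 162 CPM. INSIG1 was picked after its values were seen. SCD, another SREBP target, was at 1084, 1061 and 1431 CPM in H9 controls, and its deviation from the other libraries of the group was 0.42 in library 18, 0.54 in library 15 and 0.76 in library 10 on the log2 scale. SC5D deviated by 0.49, 0.40 and 0.43 in the same libraries, and SREBF2 by 0.31, 0.13 and 0.06. PMVK went another way, at -0.07, -0.06 and -0.56. For library 10 the other libraries include library 11, in which short transcripts were high and long ones low, as described below. The library 10 deviations had a rank correlation with transcript length of 0.68 over the listed genes and 0.52 over all genes with a length. In library 11, PMVK, of 1002 bases, deviated by 0.86 and SCD, of 5245 bases, by -0.88. The part of library 11 in the library 10 values was not tested. In H1 the INSIG1 values were 101 to 128 CPM. Library 18 also held the most counts of blood genes, 2674, whereas libraries 15 and 10 held 0 and 1; the part of blood transcripts in the pattern was not tested.

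Library 11, an H9 chronic library, stood apart in another way. Against the other 2 chronic H9 libraries, short transcripts were high in it and long ones low. Over the 36 genes the rank correlation of the deviation with the length of the canonical transcript was -0.73, and over 15104 genes with a length it was -0.62, a description of this library that shares one measurement across genes. The 4 genes of the shortest class had a median log2 deviation of 0.76 and the 7 of the longest class one of -0.67, while all genes of these classes had 0.56 and -0.57. APOE, of 1166 bases, deviated by 1.22, whereas ELOVL6, of 6570 bases, deviated by -1.14 and ABCA1, of 10408 bases, by -0.96. CYP46A1, of 2197 bases, deviated by 0.70. In libraries outside the H9 chronic group the rank correlation over all genes lay between -0.33 (library 14) and 0.31 (library 15). Over the listed genes it was -0.40 and 0.36 in these libraries. Library 18 was at 0.24 over all genes and 0.15 over the listed genes. The part of transcript length in the patterns of libraries 14, 15 and 18 was not tested. The H9 chronic values of short and long genes above therefore move with library 11. Without it, the line difference in chronic organoids was 1.58 ± 0.21 for APOE in place of 2.10 and 2.29 ± 0.11 for CYP46A1 in place of 2.56. Both still passed, and so did SREBF1 at -1.46 ± 0.15. PMVK, at 0.36 ± 0.17, then no longer passed (adjusted p = 0.0828, edgeR).

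**Figure D5:**
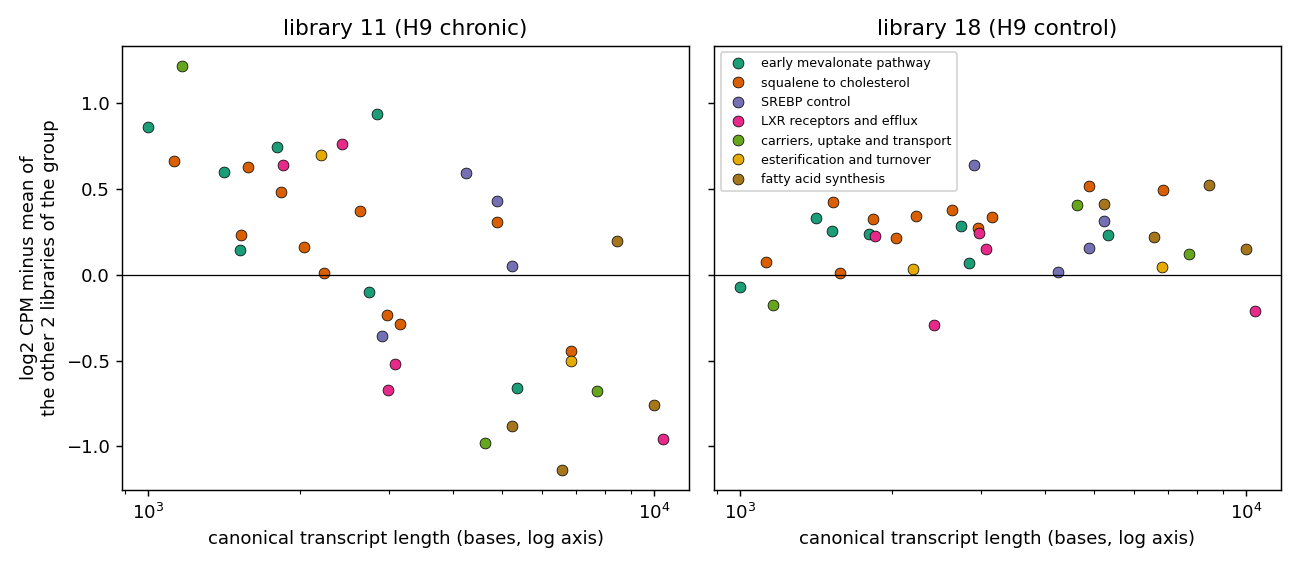
Deviation of library 11 (left) and library 18 (right) from the other 2 libraries of their group (log2 CPM, vertical axis) against canonical transcript length in bases (log axis), 1 point per gene, coloured by role. In library 11 short genes are high and long genes low; in library 18 most genes of every length are above 0.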

How the data were processed

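The authors' deposited table of raw read counts per gene symbol was tested, and their deposited TPM values, scaled by the authors for length and depth, were used for levels between genes and for 1 alternative test. The authors also deposited comparison tables with log2 fold changes and p-values adjusted by the authors for false discovery, and these list 0 of the 36 genes. GRCh38 and hg38 are the builds listed, per the submitters' processing notes. The aligner and counter were not stated in the labels.

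Per the labels, RNA was selected by poly(A) and sequenced from both ends, with strand kept by dUTP. Library 9 was left out, leaving 17 libraries of 13647204 to 21691180 counts. Counts were fitted in 6 group means with edgeR 4.0.16 in R 4.3.3 (TMM scaling, filterByExpr, quasi-likelihood F test), with 14 contrasts and Benjamini-Hochberg adjustment over 17567 genes. The SE is the size of the log2 fold change divided by the square root of F. The entries turned into dates by spreadsheet software, 28 in number, hold 0.439% of counts and name no gene. They stayed in the counts and met the same low-count filter as the other entries. Alternatives used DESeq2 1.42.0, limma 3.58.1 on log2(TPM + 1) and log2(TPM + 0.1), other scalings, filters and thresholds, all 18 libraries, the compared groups alone, the blood transcript split, and each library left out. Positions and lengths are from GENCODE 44. The fitting steps were tested on simulated counts.

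The genes, lists and tests were chosen with earlier results of these data known. Every gene that passed in a comparison is named; where none passed, the 2 of smallest p in each direction are given. Values per library are given for genes that pass a treatment comparison and for the 3 of largest line difference in each direction, and a few others were added after their values were seen. Of other lists, up to 3 genes of smallest p per direction are named. Some genes of these pathways and lists are not reported here.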

Additional observations from a re-analysis of the deposited data

How the results depend on the processing

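No gene changed direction past the threshold in any of the 29 alternatives. No paired analysis was made because the labels used here give no pairing of libraries between groups. The line difference over treatments fell to 11 genes higher and 4 lower without libraries 4, 8, 13, 17 and 18, and to 4 lower with all 18 libraries; leaving out 1 library gave 15 to 18 higher and 6 to 9 lower. In controls, 4 were higher and 1 lower without those 5 libraries, and 1 (SREBF1) lower with all 18; leaving out 1 library gave 7 (without library 8) to 17 higher and 2 (without 8 or 17) to 6 lower. In acute organoids 5 were lower at an adjusted p under 0.1, and 9 to 13 higher and 2 to 6 (without library 11) lower with 1 library left out. In chronic organoids 5 were lower with limma on log2(TPM + 1) and on log2(TPM + 0.1), and 10 to 15 higher and 2 to 6 (without 10 or 11) lower with 1 library left out. Chronic against control in H1 gave 2 higher (ABCG1, APOE) with only the groups compared, and 0 to 1 (ABCG1, without library 11) with 1 left out. Chronic against acute in H9 gave 0 with only the groups compared, with the blood split as a term and without those 5 libraries, and 0 (without 3, 8, 11, 13, 14 or 15) to 3 (without 10) with 1 left out. The chronic interaction gave 0 to 1 (FASN, without 18). Causes were not tested, except that fewer libraries or groups enter several of these fits. Low depth in library 9 and 2 H1 controls limit every H1 comparison with control.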
